A study of Mus musculus with 12 samples.

Results

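Cyclins and G1 cyclin-dependent kinases (CDKs) were followed here as 10 genes of the LSK transcriptome: the D cyclins *Ccnd1*, *Ccnd2* and *Ccnd3*, the E cyclins *Ccne1* and *Ccne2*, the A cyclin *Ccna2*, the B cyclins *Ccnb1* and *Ccnb2*, and the kinases *Cdk4* and *Cdk6*. They were taken by gene symbol, and all 10 were found among the 53465 genes of the deposited table. LSKs are bone marrow cells sorted as lineage-negative, Sca-1-positive and c-Kit-positive, a gate that holds hematopoietic stem cells and multipotent progenitors. RNA-seq was run on 12 libraries in 4 groups of 3. The groups were Tespa1+/+ (wild-type littermates) and Tespa1-/- mice, each untreated or 9 days after 150 mg/kg of 5-fluorouracil (5-FU), an antimetabolite that kills cycling cells. The mutant is the germline line B6.129S-Tespa1tm1Smoc bred onto C57BL/6, so the change was in every cell of the animal and not in LSKs alone, and the mice of the study were male and, apart from a set of middle-aged mice, 8 to 10 weeks old. Whether a library came from 1 mouse or from pooled mice was not given, so the p-values measure the spread between these libraries only.

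D cyclins bind CDK4 and CDK6 and start the phosphorylation of the retinoblastoma protein early in G1. Cyclin E then drives entry into S phase, cyclin A2 acts in S phase and G2, and cyclins B1 and B2 act at mitosis. Hematopoietic stem cells are mostly in G0, and CDK6 is the G1 kinase best known for setting how readily they leave it. Transcripts of the A and B cyclins are periodic and accumulate late in the cycle, whereas those of the D cyclins follow growth signals.

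Promoters of 6 of the 10 genes (*Ccnd3*, *Ccne1*, *Ccnb1*, *Ccnb2*, *Cdk4* and *Cdk6*) were matched among the 32851 promoters of the RefSeq table (GRCm38.p6), each from 250 bases before to 50 bases after a start site. The B cyclin promoters are shown because their genes were among those higher in Tespa1-/- LSKs after 5-FU, and the *Cdk4* promoter because its gene was not. The CCAAT box, the CHR letters TTTGAA, the E-box CACGTG, the E2F site letters TTTCGCGC and their variant TTTGGCGC, and the GC box GGGCGG were searched on both strands. Capitals mark CCAAT in the 2 B cyclin stretches and CACGTG in that of *Cdk4*, and each stretch is written 5′ to 3′ on the strand of its gene. Those of *Ccnb2* and *Cdk4* end just before the RefSeq start site, and that of *Ccnb1* stops short of it. The *Ccnb2* stretch is chr9:70421555-70421804 (minus strand), the *Ccnb1* stretch is chr13:100786544-100786736 (minus strand; its last 27 bases lie in a GENCODE exon of *Ccnb1*) and the *Cdk4* stretch is chr10:127063285-127063534 (plus strand).
Ccnb2: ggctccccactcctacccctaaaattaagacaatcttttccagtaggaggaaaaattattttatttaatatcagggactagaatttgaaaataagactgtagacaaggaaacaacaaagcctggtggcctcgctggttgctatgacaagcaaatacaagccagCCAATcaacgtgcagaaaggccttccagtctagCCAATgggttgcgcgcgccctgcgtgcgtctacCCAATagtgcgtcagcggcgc
Ccnb1: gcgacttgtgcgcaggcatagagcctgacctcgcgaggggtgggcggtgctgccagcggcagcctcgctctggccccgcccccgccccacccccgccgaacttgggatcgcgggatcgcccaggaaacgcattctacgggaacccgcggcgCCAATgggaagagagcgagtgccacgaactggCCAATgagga
Cdk4: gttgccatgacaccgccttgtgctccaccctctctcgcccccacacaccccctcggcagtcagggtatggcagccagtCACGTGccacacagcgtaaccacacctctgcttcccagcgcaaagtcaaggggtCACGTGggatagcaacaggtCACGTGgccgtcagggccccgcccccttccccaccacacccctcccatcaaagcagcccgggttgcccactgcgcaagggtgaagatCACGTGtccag

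The *Ccnb2* promoter held 3 CCAAT, starting 87, 54 and 21 bases upstream, a number reached by 3.37% of all promoters of this length. The *Ccnb1* promoter held 2, at 99 and 67 bases upstream of the RefSeq start site, and 11.7% of all promoters held at least that many. The one at 67 lies within the GENCODE exon of *Ccnb1*. CACGTG, the E-box letters bound by Myc and Max among other factors, was present 4 times in the *Cdk4* promoter (172, 118, 98 and 11 bases upstream), which 0.0244% of promoters reached, and 1 time in that of *Cdk6* (7.15% of promoters held at least 1). The *Ccne1* promoter held 4 GGGCGG, which 5.49% of promoters reached. TTTGAA was present 2 times in the *Ccnb2* window, which 2.31% of promoters reached, and in none of the other 5 genes' windows (17.9% of promoters held at least 1). TTTCGCGC and TTTGGCGC were in none of the 6 genes' windows, and in 0.323% and 0.514% of all promoters.

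The libraries held 22118154 to 28275079 counts (median 23401715), and the 10 genes had 227 to 27030 counts in a library, so counting error was small for all of them. The detection limit of 3 counts was 0.107 to 0.136 CPM (counts scaled to a common library total), for counting error only. *Tespa1* itself was at 49.8, 43.0 and 46.5 CPM in untreated wild-type libraries, 34.5, 35.0 and 34.9 CPM in untreated Tespa1-/- libraries, 47.2, 55.0 and 57.4 CPM in wild-type libraries after 5-FU and 20.8, 19.8 and 17.3 CPM in Tespa1-/- libraries after 5-FU. It was lower in the mutant in both states, with log2 fold changes of -0.42 (edgeR adjusted p = 0.0316) and -1.47 (edgeR adjusted p = 9.4e-05), but transcripts were still counted. A sum was taken of 10 stem and progenitor markers of the LSK gate, which include *Kit* and *Ly6a* (Sca-1). It was lowest in Tespa1-/- libraries after 5-FU, at 800 to 868 CPM. The other groups were at 1599.9 to 1672 (untreated wild type), 1334 to 1386 (untreated Tespa1-/-) and 1329.7 to 1374 CPM (wild type after 5-FU). By genotype after 5-FU 0 of the 10 were higher and 7 lower (7.34% and 5.78% of all genes tested). With 5-FU in Tespa1-/- 3 rose and 3 fell (10.7% and 8.64%), so the sum does not stand for each marker. In that comparison *Flt3* went from a mean of 493 to 169 CPM and *Slamf1* from 2.96 to 14.2 CPM. In the 3 Tespa1-/- libraries after 5-FU, 10 later neutrophil markers summed to 1022 to 1026 CPM. All other libraries were at 0.77 to 8.42 CPM, and 2 to 4 of these markers were at 0 in every library of a group. Granule progenitor markers (5 genes) summed to 4596 to 4886 CPM in Tespa1-/- libraries after 5-FU. They were at 2531 to 2625 in untreated wild type, 3464 to 3658 in untreated Tespa1-/- and 2498 to 2703 CPM in treated wild type. In Tespa1-/- libraries after 5-FU erythroid markers (7 genes) summed to 451 to 461 against 99.7 to 154 CPM elsewhere. T lymphoid markers (4 genes) summed there to 4.74 to 6.89 against 0 to 1.14 CPM. B lymphoid markers (7 genes) were at 326 to 344 CPM, near the 286 to 298 CPM of wild-type LSKs after 5-FU and above the 42.1 to 77.1 CPM of untreated libraries, and megakaryocyte markers (5 genes) were at 248 to 262 CPM against 44.2 to 194 CPM elsewhere. The part of these cell type markers in the results on cyclins was not tested, and in bulk libraries fewer cells of a type and less RNA per cell cannot be told apart.

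*Cdk6* was the most abundant of the 10 transcripts per length in untreated wild-type LSKs. Its level was 58.8 ± 2.55 FPKM (SD, n = 3), followed by *Ccnb2* (34.1 ± 4.04 FPKM) and *Ccnd2* (31.0 ± 0.555 FPKM), whose libraries overlapped. *Cdk4* (17.5 ± 1.61 FPKM) and *Ccna2* (15.8 ± 0.779 FPKM) overlapped too. *Ccnd1* followed at 7.44 ± 1.41 FPKM and *Ccne1* at 3.37 ± 0.200 FPKM, and the lowest genes, *Ccnd3* (2.07 ± 0.429 FPKM), *Ccne2* (2.04 ± 0.355 FPKM) and *Ccnb1* (1.94 ± 0.598 FPKM), overlapped with each other. In untreated Tespa1-/- LSKs and in wild-type LSKs after 5-FU, *Cdk6* was again first, at 60.5 ± 0.341 and 59.4 ± 0.837 FPKM, with *Ccnb2*, *Ccnd2*, *Cdk4*, *Ccna2*, *Ccnd1* and *Ccne1* behind it in that order. In Tespa1-/- LSKs after 5-FU, *Ccnb2* (52.2 ± 2.26 FPKM) overlapped with *Cdk6* (49.8 ± 1.06 FPKM) at the top, *Ccna2* (23.7 ± 0.718 FPKM) stood above *Ccnd2* (17.5 ± 0.0220 FPKM), and *Ccne1* (7.65 ± 0.693 FPKM) above *Ccnd1* (4.74 ± 0.399 FPKM). The deposited FPKM rest on gene lengths 1.0 (*Ccnb2*) to 2.23 (*Ccne2*) times the merged GENCODE exons. Per kilobase of merged exons *Cdk6* was first in every group (71.9, 74.1, 72.8 and 60.9 CPM per kilobase), and *Cdk4* (34.3 CPM per kilobase in untreated wild type) stood beside *Ccnb2* (34.1) and below *Ccnd2* (40.7). On that scale *Ccne1* (4.76 in untreated wild type) overlapped with *Ccne2* (4.53).

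**Figure D1:**
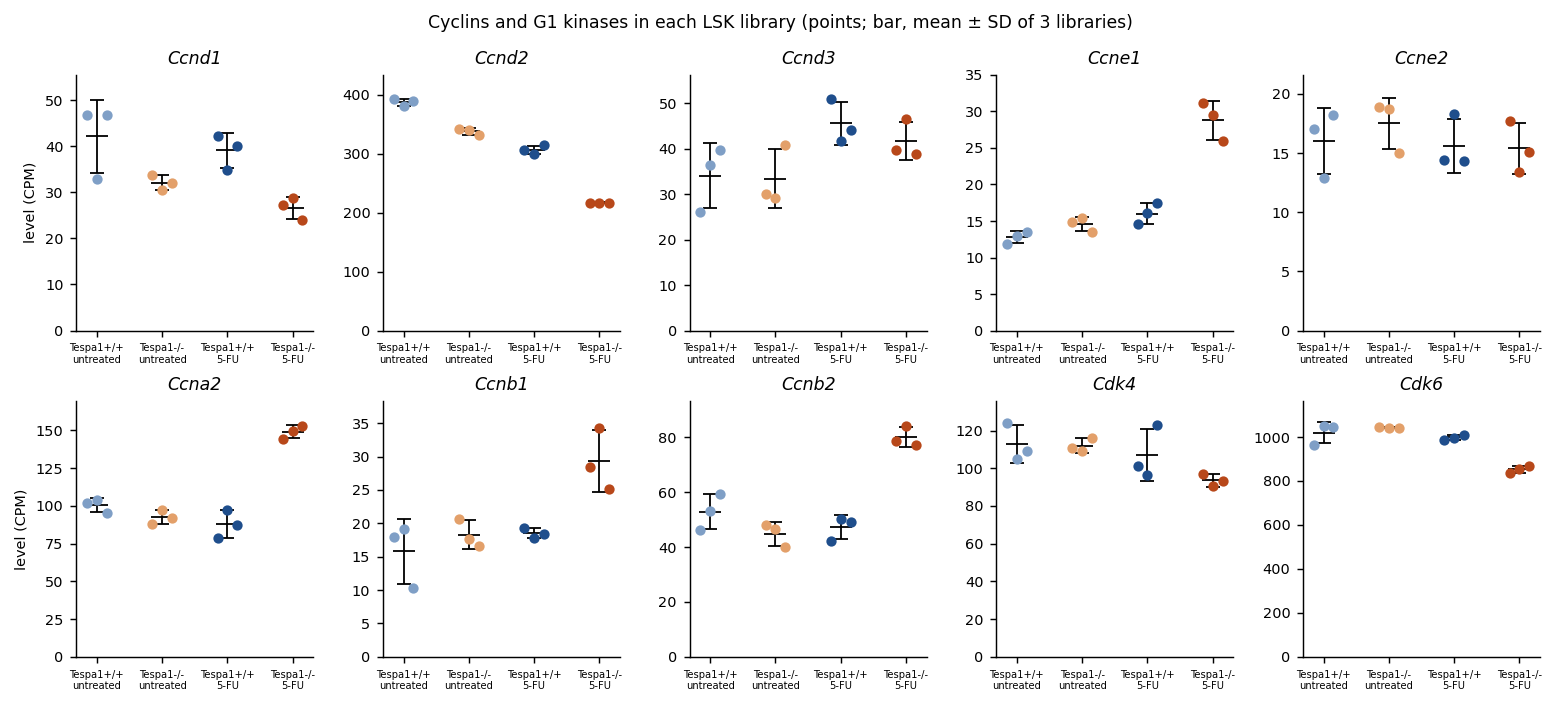
Level of each gene in CPM (counts scaled to a common library total, vertical axes from 0) in each of the 12 libraries, by genotype and treatment; bars are the mean ± SD of 3 libraries. *Ccnd2* fell in steps to 217 CPM in Tespa1-/- libraries after 5-FU, where *Ccne1*, *Ccna2*, *Ccnb1* and *Ccnb2* were above every other library.

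Few of the 10 genes differed by genotype before treatment and most did after it. In untreated LSKs 1 of 10 was lower in Tespa1-/- (of 17055 genes tested, 3.59% were lower and 1.64% higher by the same rule, edgeR adjusted p below 0.05), and 0 were higher, while an unadjusted p below 0.05 was reached by 0 higher and 2 lower and a DESeq2 call by 0 higher and 1 lower. After 5-FU 4 of 10 were higher (7.34% of 17239 genes) and 3 lower (5.78%). The response to 5-FU followed the same split. In wild type 1 of 10 was lower (4.18% of 17002 genes) and 0 higher (3.77%; 1 at an unadjusted p below 0.05, 0 by DESeq2), whereas in Tespa1-/- 4 were higher (10.7% of 17228 genes) and 3 lower (8.64%). The 3 libraries of both groups did not overlap for 2 of 10 genes by genotype untreated (25.6% of all genes tested), 7 after 5-FU (33%), 3 for 5-FU in wild type (28.5%) and 8 for 5-FU in Tespa1-/- (38.5%). The median log2 fold changes of the 10 genes stayed near those of all genes, at -0.02 against 0.01, -0.08 against -0.01, -0.06 against 0.01 and 0.06 against -0.01 in that order. Comparisons that share a group of libraries are not independent of each other.

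Of the D cyclins, *Ccnd2* was lower in all 4 comparisons, *Ccnd1* in 1 and *Ccnd3* in none. *Ccnd2* (chr6:127125162-127152193, minus strand), the main D cyclin transcript of these cells, was at 393, 381 and 389 CPM in untreated wild-type libraries and 342, 339.9 and 331 CPM in untreated Tespa1-/- libraries. After 5-FU it was at 306, 300.1 and 314 CPM in wild type and at 217, 217 and 217 CPM in Tespa1-/-. No 2 of the 4 groups overlapped. It fell with 5-FU in wild type (log2 fold change -0.34, SE 0.05, edgeR adjusted p = 0.00249) and in Tespa1-/- (-0.65, SE 0.04, edgeR adjusted p = 1.3e-05). It was lower in Tespa1-/- than in wild type after 5-FU (-0.50, SE 0.05, edgeR adjusted p = 1.6e-04). The smaller genotype difference in untreated LSKs (-0.20, SE 0.04, edgeR adjusted p = 0.0279) had the same size but missed the threshold without wild-type replicate 2 (adjusted p = 0.0570), wild-type replicate 3 (0.0561), Tespa1-/- replicate 1 (0.103), replicate 2 (0.121) or replicate 3 (0.126), each in an edgeR fit of fewer libraries.

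*Ccnd1* (chr7:144929931-144939925, minus strand), the D cyclin most tied to mitogen signals, was at 46.9, 33 and 46.8 CPM in untreated wild-type libraries, 33.8, 30.6 and 32.0 CPM in untreated Tespa1-/- libraries, 42.2, 34.8 and 40.1 CPM in wild-type libraries after 5-FU and 27.2, 28.7 and 24.1 CPM in Tespa1-/- libraries after 5-FU. The genotypes overlapped before treatment and were apart after it. After 5-FU it was lower in Tespa1-/- (log2 fold change -0.56, SE 0.12, edgeR adjusted p = 0.0165). That call was lost without wild-type replicate 1 (edgeR adjusted p = 0.0599) or 3 (0.0557) or without Tespa1-/- replicate 1 (0.0531) or 3 (0.0644), at log2 fold changes of -0.49 to -0.57. In untreated LSKs the difference was -0.39 (SE 0.14, edgeR adjusted p = 0.179), and without the lowest wild-type library, replicate 2, it was -0.54 (edgeR adjusted p = 0.0303). 5-FU gave -0.11 in wild type (edgeR adjusted p = 0.739) and -0.28 in Tespa1-/- (edgeR adjusted p = 0.0921).

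*Ccnd3* (chr17:47505051-47599691, plus strand), the D cyclin best known from lymphoid and erythroid precursors, passed the test in no comparison. It was at 26, 36.5 and 39.8 CPM in untreated wild-type libraries, 30.1, 29.2 and 40.9 CPM in untreated Tespa1-/- libraries, 50.9, 41.7 and 44.2 CPM in wild-type libraries after 5-FU and 39.8, 46.5 and 38.9 CPM in Tespa1-/- libraries after 5-FU. The wild-type libraries did not overlap between treatments, and all other pairs of groups compared did. The log2 fold change with 5-FU was 0.42 in wild type (SE 0.16, edgeR adjusted p = 0.169) and 0.31 in Tespa1-/- (SE 0.14, edgeR adjusted p = 0.168). In Tespa1-/- it was 0.48 without the highest untreated library, replicate 3 (edgeR adjusted p = 0.0346).

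Both kinase genes moved little. *Cdk6* (chr5:3341485-3531008, plus strand) was at 964, 1049 and 1044 CPM in untreated wild-type libraries, 1045, 1043 and 1040.3 CPM in untreated Tespa1-/- libraries, 988, 994 and 1010 CPM in wild-type libraries after 5-FU and 837, 853 and 869.7 CPM in Tespa1-/- libraries after 5-FU. The last 3 lay below every other library. *Cdk6* was lower in Tespa1-/- than in wild type after 5-FU (log2 fold change -0.23, SE 0.03, edgeR adjusted p = 0.0016) and lower after 5-FU than before it in Tespa1-/- (-0.30, SE 0.03, edgeR adjusted p = 1.4e-04). *Cdk4* (chr10:127063534-127067920, plus strand) was at 124, 105 and 109 CPM in untreated wild-type libraries, 111, 109 and 116 CPM in untreated Tespa1-/- libraries, 101, 96.4 and 123 CPM in wild-type libraries after 5-FU and 97.1, 90.4 and 93.3 CPM in Tespa1-/- libraries after 5-FU. Its genotypes overlapped in both states. *Cdk4* was lower after 5-FU in Tespa1-/- (-0.27, SE 0.06, edgeR adjusted p = 0.0113), a call that missed the threshold when all 12 libraries shared one estimate of the spread (-0.26, edgeR adjusted p = 0.0744).

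The E cyclins parted from each other. *Ccne1* (chr7:38097984-38107534, minus strand), a partner of CDK2 at the start of S phase, was at 11.9, 13 and 13.5 CPM in untreated wild-type libraries, 14.9, 15.4 and 13.5 CPM in untreated Tespa1-/- libraries, 14.6, 16.1 and 17.4 CPM in wild-type libraries after 5-FU and 31.1, 29.5 and 25.9 CPM in Tespa1-/- libraries after 5-FU. The last 3 stood well above the other 9. *Ccne1* rose with 5-FU in Tespa1-/- (log2 fold change 0.97, SE 0.12, edgeR adjusted p = 7.7e-04) and was 1.79-fold higher than in wild type after 5-FU (0.84, SE 0.14, edgeR adjusted p = 0.00368). In wild type 5-FU gave 0.32 (SE 0.16, edgeR adjusted p = 0.292). *Ccne2* (chr4:11191351-11204779, plus strand), the paralog with the same role, was at 17.0, 12.9 and 18.2 CPM in untreated wild-type libraries, 18.9, 18.7 and 15 CPM in untreated Tespa1-/- libraries, 14.4, 18.3 and 14.3 CPM in wild-type libraries after 5-FU and 17.7, 13.4 and 15.1 CPM in Tespa1-/- libraries after 5-FU. All 4 groups overlapped, and the genotype difference after 5-FU was -0.03 (SE 0.18, edgeR adjusted p = 0.947).

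The A and B cyclins, the late transcripts of the cycle, were higher in Tespa1-/- LSKs after 5-FU than in the other 3 groups. *Ccna2* (chr3:36564865-36572150, minus strand) was at 102, 104 and 95.2 CPM in untreated wild-type libraries, 88.2, 97.5 and 92.2 CPM in untreated Tespa1-/- libraries, 78.7, 97.3 and 87.4 CPM in wild-type libraries after 5-FU and 144, 149.6 and 153 CPM in Tespa1-/- libraries after 5-FU. It was higher in Tespa1-/- than in wild type after 5-FU (log2 fold change 0.76, SE 0.08, edgeR adjusted p = 4.0e-04) and rose with 5-FU in Tespa1-/- (0.67, SE 0.06, edgeR adjusted p = 8.3e-05). *Ccnb2* (chr9:70407692-70421547, minus strand) was at 46.4, 53.0 and 59.3 CPM in untreated wild-type libraries, 48.2, 46.6 and 39.9 CPM in untreated Tespa1-/- libraries, 42.1, 50.4 and 49.0 CPM in wild-type libraries after 5-FU and 78.7, 84.2 and 77.2 CPM in Tespa1-/- libraries after 5-FU. For both genes the first 3 groups overlapped and the last 3 libraries were above them. *Ccnb2* was higher by genotype after 5-FU (0.76, SE 0.09, edgeR adjusted p = 8.0e-04) and rose with 5-FU in Tespa1-/- (0.82, SE 0.09, edgeR adjusted p = 3.1e-04). In wild type 5-FU gave -0.19 for *Ccna2* and -0.16 for *Ccnb2*, neither past the threshold. The 3 Tespa1-/- libraries after 5-FU are also those with the later neutrophil, granule progenitor and erythroid markers given above, whose part was not tested.

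*Ccnb1* (chr13:100778650-100786570, minus strand) moved the same way with more spread. It was at 18, 19.1 and 10.3 CPM in untreated wild-type libraries, 20.7, 17.6 and 16.6 CPM in untreated Tespa1-/- libraries, 19.3, 17.8 and 18.4 CPM in wild-type libraries after 5-FU and 28.4, 34.3 and 25.2 CPM in Tespa1-/- libraries after 5-FU. Untreated wild-type replicate 3 was the lowest of the 12 and the Tespa1-/- libraries after 5-FU were the highest. The log2 fold change by genotype after 5-FU was 0.66 (SE 0.14, edgeR adjusted p = 0.016), and the call was lost without wild-type replicate 2 (0.63, edgeR adjusted p = 0.0567) or 3 (0.65, 0.0514) or without Tespa1-/- replicate 2 (0.53, 0.0671). With 5-FU in Tespa1-/- it was 0.67 (SE 0.15, edgeR adjusted p = 0.0127), lost without untreated replicate 2 (0.64, edgeR adjusted p = 0.0552) or 3 (0.60, 0.0548). A processed pseudogene, *Ccnb1-ps*, can share its reads, so the split of counts between them is uncertain. *Ccnb1-ps* was at 19.4 to 24 CPM in Tespa1-/- libraries after 5-FU and at 8.39 to 11.9 CPM in the other 9. With the counts of both summed, a choice made after the data were seen, the difference by genotype after 5-FU was 0.79 (SE 0.11, edgeR adjusted p = 0.0018) and the rise with 5-FU in Tespa1-/- was 0.86 (SE 0.11, edgeR adjusted p = 9.6e-04).

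**Figure D2:**
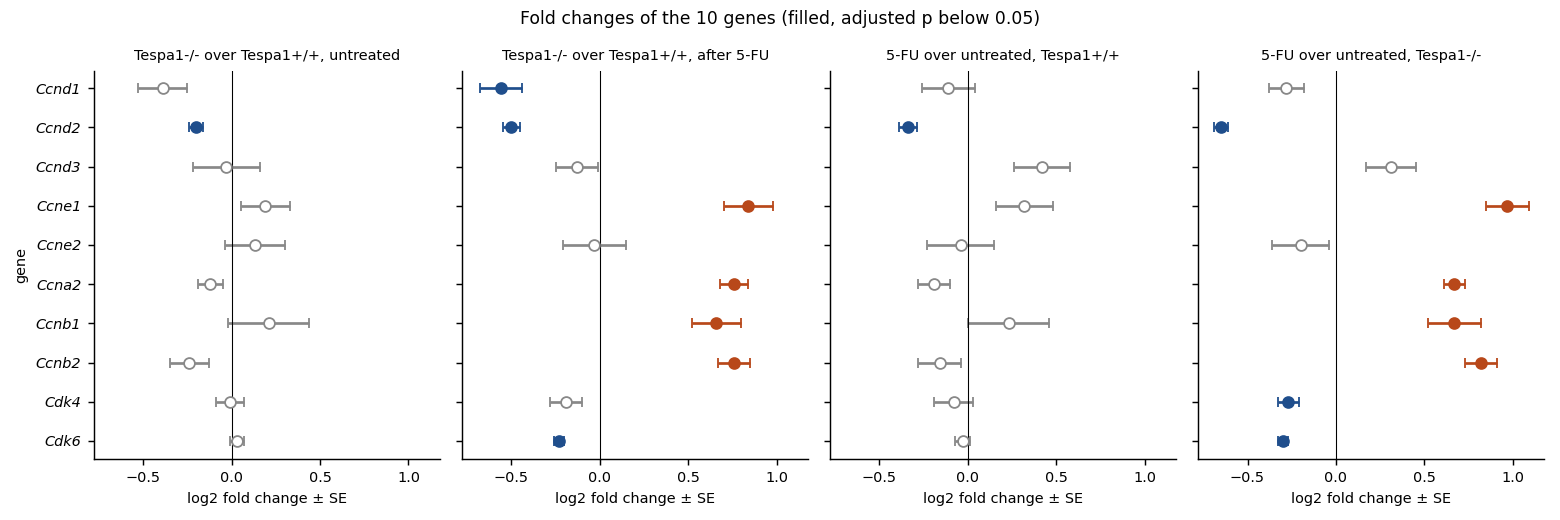
Log2 fold change (horizontal axis, bars are ± 1 SE) of each gene in the 4 comparisons; filled points passed an edgeR adjusted p below 0.05. In the untreated genotype and the wild-type 5-FU panels the single filled point is *Ccnd2*, and in the other 2 panels *Ccne1*, *Ccna2*, *Ccnb1* and *Ccnb2* are to the right and *Ccnd2* and *Cdk6* to the left.

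Whether 5-FU acted differently by genotype was tested as the interaction in a fit of all 12 libraries. It passed for 4 of 10 genes, 2 higher (3.02% of 18696 genes) and 2 lower (1.99%). The response to 5-FU in Tespa1-/- exceeded that in wild type by 0.88 for *Ccna2* (log2 scale, SE 0.11, edgeR adjusted p = 4.5e-04) and by 1.0 for *Ccnb2* (SE 0.15, edgeR adjusted p = 0.0018). It was below that in wild type by a difference of -0.30 for *Ccnd2* (SE 0.05, edgeR adjusted p = 0.00556) and of -0.26 for *Cdk6* (SE 0.05, edgeR adjusted p = 0.00655). For *Ccne1* the difference was 0.66 (SE 0.18, edgeR adjusted p = 0.0587, and 0.0222 by DESeq2). For *Ccnb1* it was 0.46 (SE 0.29, edgeR adjusted p = 0.443), and 0.69 (SE 0.22, edgeR adjusted p = 0.0962) with *Ccnb1-ps* added. *Ccnd1* (-0.16), *Ccnd3* (-0.10), *Ccne2* (-0.15) and *Cdk4* (-0.18) had edgeR adjusted p of 0.737, 0.876, 0.818 and 0.519.

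Shares within each family of paralogs were computed per library from FPKM and tested with 12 exact two-sided permutation tests of libraries within the other factor, for which 0.005 is the smallest p. *Ccnd2* made up most of the D cyclin transcript in every library, with 76.1, 79.1 and 74.5% in untreated wild type, 77.9, 79.1 and 76.5% in untreated Tespa1-/-, 69.9, 73.5 and 72.0% in wild type after 5-FU and 70.7, 68.8 and 72.4% in Tespa1-/- after 5-FU. Its share was lower after 5-FU (-6.0 points, exact permutation p = 0.005, adjusted p = 0.03), without overlap of treated and untreated libraries, while that of *Ccnd3* was 3.71 points higher (exact permutation p = 0.005, adjusted p = 0.03), from a mean of 5.12% to 8.1% in wild type and from 5.84% to 10.3% in Tespa1-/-. By genotype the *Ccnd2* share differed by 1.27 points in untreated LSKs and by -1.15 points after 5-FU (mean 0.0637, exact permutation p = 0.975). The *Ccnd3* share differed by 1.45 points by genotype (exact permutation p = 0.04, adjusted p = 0.08) and the *Ccnd1* share by 2.29 points with 5-FU (exact permutation p = 0.03, adjusted p = 0.08), neither past the threshold after adjustment. *Ccne1* made up 59.3, 67.7 and 60.6% of E cyclin FPKM in untreated wild type, 62.0, 63.0 and 65.1% in untreated Tespa1-/-, 67.7, 64.6 and 71.6% in wild type after 5-FU and 78.5, 82.0 and 78.0% in Tespa1-/- after 5-FU. The 5-FU difference was 10.8 points (exact permutation p = 0.01, adjusted p = 0.04), 5.48 in wild type and 16.1 in Tespa1-/-, and the genotype difference was 6.19 points (exact permutation p = 0.04, adjusted p = 0.08). With 1 library left out, the *Ccne1* call for 5-FU was lost without untreated wild-type replicate 1 (9.98 points, exact permutation adjusted p = 0.06) or 3 (10.3, 0.08) or treated wild-type replicate 1 (10.8, 0.06) or 3 (9.87, 0.06). The *Ccnd2* and *Ccnd3* calls for 5-FU were at an exact permutation adjusted p of 0.06 without treated wild-type replicate 1 (-5.53 and 3.53 points) or 3 (-6.05 and 3.81 points). In those tests treated and untreated libraries stayed apart in both genotypes, and the unadjusted exact permutation p was 0.01 for *Ccnd2* and 0.005, the smallest that 200 assignments allow, for *Ccnd3*. The *Ccnb1* share of B cyclin FPKM, at group means of 5.5 to 7.19%, and the *Cdk4* share of the kinase pair, at 22.2 to 22.9%, gave adjusted p of at least 0.818 in the exact permutation tests. The size of a share depends on the gene lengths used. Per kilobase of merged exons, a scale added after the data were seen, the group means were 9.96 to 12.9% for *Ccnb1*, 31.5 to 32.3% for *Cdk4*, 68.9 to 77.2% for *Ccnd2* and 7.2 to 14.2% for *Ccnd3*. The *Ccne1* share was then 51.4% and 52.3% in untreated wild type and Tespa1-/- and 57.4% and 71.1% after 5-FU. The 5-FU differences on that scale were -6.87 points for *Ccnd2* (exact permutation adjusted p = 0.03), 5.04 for *Ccnd3* (0.03) and 12.4 for *Ccne1* (0.04). The ratio of *Ccna2* to *Ccnd2* counts, chosen after the values were seen and given without a test, was 0.245 to 0.324 in 9 libraries and 0.665, 0.688 and 0.705 in Tespa1-/- libraries after 5-FU.

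**Figure D3:**
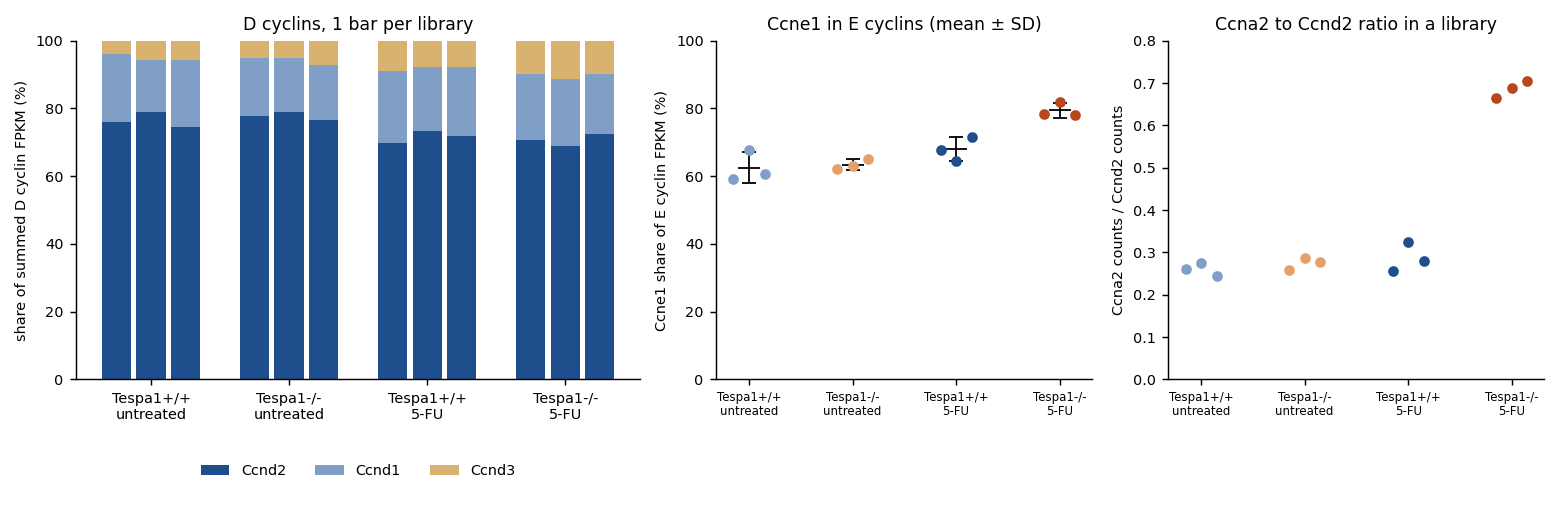
Left, share of summed D cyclin FPKM (%) taken by each gene, 1 stacked bar per library; middle, share of *Ccne1* in E cyclin FPKM (%, points are libraries, bar is mean ± SD, n = 3); right, *Ccna2* counts divided by *Ccnd2* counts in each library. *Ccnd2* dominates every bar, the *Ccne1* share is highest in Tespa1-/- after 5-FU (mean 79.5%), and the ratio is 0.665 or more there and at most 0.324 elsewhere.

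Other genes of the cell-cycle machinery were counted from fixed lists. Of 16 mitotic genes, 12 were higher and 0 lower in Tespa1-/- than in wild type after 5-FU, beside 7.34% and 5.78% of all genes tested. The count of lower genes was 0 also before adjustment and by DESeq2. The median log2 fold change of the list was 0.60 against -0.01 over all genes. The largest change was that of *Aurka*, the kinase that matures spindle poles, which was at 26.7, 22 and 22.8 CPM in wild type and 48.9, 46.9 and 50.1 CPM in Tespa1-/- (1.03, SE 0.11, edgeR adjusted p = 4.3e-04). In untreated LSKs 0 of the 16 passed, beside 1.64% of all genes tested higher and 3.59% lower. Before adjustment the edgeR p was below 0.05 for 1 higher and 1 lower gene, DESeq2 called 0, and the median was -0.01. In 5-FU responses, 11 of the 16 rose in Tespa1-/- (10.7% of all genes tested rose) and 1 fell in wild type (4.18% of all genes tested fell), *Top2a* (-0.23, SE 0.04, edgeR adjusted p = 0.00757). The interaction passed for 9, all higher in Tespa1-/- (3.02% of all genes tested). Of 16 S-phase genes, 5 were higher (7.34% of all genes tested) and 0 lower (5.78%) by genotype after 5-FU. Before adjustment 6 and 0 had an edgeR p below 0.05, DESeq2 called 5 and 0, and the median was 0.12. *Rrm2*, a subunit of ribonucleotide reductase, led the list. It was at 81.1, 78.2 and 86.5 CPM in wild type and 144, 144 and 139 CPM in Tespa1-/- (0.79, SE 0.06, edgeR adjusted p = 7.7e-05).

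Lists of cyclin and CDK regulators were counted in the same comparison, in which 7.34% of all genes tested were higher and 5.78% lower. Of 8 CDK inhibitors and RB family genes tested of 10, 1 was higher and 1 lower by genotype after 5-FU (median 0.16). *Cdkn2c*, the p18 inhibitor of CDK4 and CDK6, was at 10.6, 8.83 and 11.3 CPM in wild type and 22.9, 27.7 and 30.8 CPM in Tespa1-/- (1.40, SE 0.17, edgeR adjusted p = 7.5e-04). *Cdkn1a*, which encodes the p21 inhibitor, was the only gene of that list called in untreated LSKs, at 144, 145 and 163 CPM in wild type and 61.0, 58.0 and 59.1 CPM in Tespa1-/- (-1.34, SE 0.07, edgeR adjusted p = 3.3e-05). It was also the gene of the list called lower in Tespa1-/- after 5-FU, at 89.9, 84.1 and 95.2 CPM in wild type and 51.0, 52.3 and 45.5 CPM in Tespa1-/- (-0.86, SE 0.09, edgeR adjusted p = 2.7e-04). It fell with 5-FU in wild type (-0.74, SE 0.08, edgeR adjusted p = 6.3e-04) and in Tespa1-/- (-0.27, SE 0.08, edgeR adjusted p = 0.0404), with an interaction of 0.49 (SE 0.11, edgeR adjusted p = 0.02). Of 10 E2F and DP factors, 3 were higher by genotype after 5-FU (median 0.20), *E2f2* the most (0.89, SE 0.11, edgeR adjusted p = 7.2e-04). Of 12 other CDKs and genes that activate or inhibit them, 4 were higher and 1 lower (median 0.23). *Pkmyt1*, among the 4, encodes an inhibitory kinase of CDK1 (0.46, SE 0.13, edgeR adjusted p = 0.0409) and is named outside the rule after its value was seen. The list was led by *Cdc25b*, a phosphatase that activates CDK1 (1.02, SE 0.11, edgeR adjusted p = 3.9e-04). Of 12 cyclin turnover genes, 3 were higher and 1 lower (median 0.29), led by *Ccnf* (0.93, SE 0.09, edgeR adjusted p = 2.3e-04), which was also higher in untreated Tespa1-/- LSKs (0.40, SE 0.08, edgeR adjusted p = 0.0277).

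**Figure D4:**
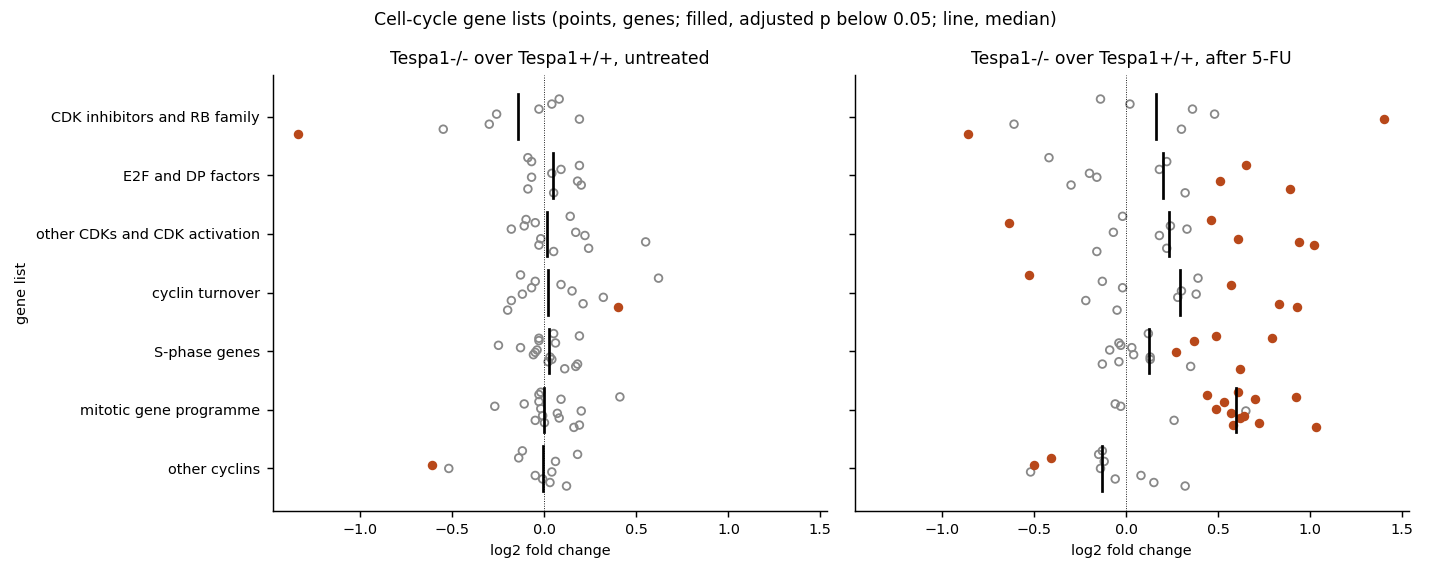
Log2 fold change (horizontal axis) of Tespa1-/- over Tespa1+/+ LSKs for each tested gene of 7 cell-cycle lists, untreated (left) and after 5-FU (right); filled points passed an edgeR adjusted p below 0.05 and vertical lines are medians. After 5-FU the mitotic list has 12 filled points and a median of 0.60; *Ccno*, which passed the filter on low counts only through Tespa1-/- libraries, is not drawn.

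The genes whose levels over the 12 libraries were most like those of the 10 were sought among 9425 genes with a mean of at least 10 CPM, as a description that follows the group differences. *Ccnd2* was closest to *Cd34*, a progenitor surface marker (Pearson r = 0.994), and *Aff3* (0.990), and *Cdk6* to *Capza2* (0.989) and *Gpr171* (0.966). *Ccna2* was closest to *Csf2ra* (0.967) and *Tpx2*, a spindle assembly factor (0.966), *Ccnb2* to *Prss57* (0.970) and *Ddx1* (0.964), and *Ccne1* to *Acss1* (0.985) and *Sptb* (0.978). The nearest genes were *D16Ertd472e* (0.973) for *Ccnd1*, *Mrps18a* (0.953) for *Ccnb1*, *Ddx17* (0.911) for *Ccnd3*, *Pfdn5* (0.892) for *Cdk4* and *Shld2* (0.843) for *Ccne2*. After group means were removed, the 45 pairs of the 10 genes had r from -0.64 to 0.74 over the 12 libraries, which share depth and sort.

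Exons of 7 of the 10 genes overlap those of a gene on the other strand, by 361 to 1100 bases, and use of strand in the counting was not given, so part of their counts may belong to the partner. The partners' counts were 167 to 371 for *Oraov1* (*Ccnd1*), 844 to 1344 for *Bysl* (*Ccnd3*), 695 to 1139 for *Exosc9* (*Ccna2*), 829 to 1439 for *Ints8* (*Ccne2*) and 543 to 903 for *Tspan31* (*Cdk4*), while those beside *Ccnd2* and *Cdk6* had at most 12 and 119, and *Ccne1*, *Ccnb1* and *Ccnb2* had no such partner.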

How the data were processed

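RNA-seq of LSKs from the BM was analysed from 1 table that the authors deposited, with read counts per gene, without normalization, for 12 libraries in 4 groups of 3. The authors also deposited FPKM values, computed from the same counts, library totals and a length per gene. The submitters' processing notes name CASAVA 1.8, HISAT2, StringTie, edgeR and GRCm38; use of strand in counting is not given in the sources used here, although the kit was stranded. Groups were taken from the labels, and dose, day and age from the paper's methods.

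Counts were tested with edgeR 4.0.16 in R 4.3.3: genes were filtered by filterByExpr (minimum count 10), scaled by TMM factors and tested with the quasi-likelihood test (glmQLFit and glmQLFTest) on the 6 libraries of each comparison, or on all 12 for the interaction. P-values were adjusted by Benjamini-Hochberg over all genes tested, and genes with an adjusted p below 0.05 were called. CPM were computed on the library total times its TMM factor, and values per kilobase of merged exons on the library total alone. The fit was tested on simulated data. Shares within paralog families used FPKM and exact permutation tests (Python 3.11, NumPy 2.4.6). Gene positions were the same in GENCODE M21 (GRCm38), and promoters came from RefSeq (GRCm38.p6).

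All 10 genes were to be named, and from each gene list the called gene with the largest absolute change. The genes and lists were chosen with earlier results of these data known. Replicates of a group differed by more than sampling noise (median chi-square over genes 2.08 to 5.88, against 0.455 for sampling alone). Each was counted as 1 sample, but this spread cannot show whether libraries came from different mice. Alternatives were DESeq2 1.42.0, other scalings and filters, a replicate block, a fit of all 12 libraries, other thresholds, and each library left out in turn.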

Additional observations from a re-analysis of the deposited data

Results flagged for a closer look

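For 4 of the 10 genes the response to 5-FU differed between genotypes by the interaction test itself. On the log2 scale the response in Tespa1-/- minus that in wild type was 0.88 for *Ccna2* (edgeR adjusted p = 4.5e-04), 1.0 for *Ccnb2* (0.0018), -0.3 for *Ccnd2* (0.00556) and -0.26 for *Cdk6* (0.00655). All 4 passed the threshold in each of the 12 edgeR fits that left out 1 library and in the 7 other fits tried.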

How the results depend on the processing

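With a fold change above 1.5 required, at an adjusted or at an unadjusted p below 0.05, 0 genes were lower by genotype in untreated LSKs, by genotype after 5-FU, with 5-FU in wild type and in the interaction, and 1 with 5-FU in Tespa1-/-, since the falls were smaller than that fold. Same-numbered libraries did not deviate together (correlations -0.07 to 0.03, 0 of 12 over 0.1), so the numbers do not pair them. A replicate block gave 0 genes lower by genotype in untreated LSKs (*Ccnd2* -0.20, edgeR adjusted p = 0.0909) and changed no other call of the 10 genes. In the share tests a replicate block gave 5-FU differences of -6.0 (*Ccnd2*, adjusted p = 0.125), 3.71 (*Ccnd3*, 0.125) and 10.8 points (*Ccne1*, 0.150), but its 64 sign changes give no p under 0.0312 before adjustment, so the lost share calls do not bear on stability.

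Leaving out 1 library gave 0 to 1 genes lower by genotype in untreated LSKs, 3 to 4 higher and 2 to 3 lower after 5-FU, and 3 to 4 higher with 5-FU in Tespa1-/-. Share differences ran from -6.52 to -5.37 (*Ccnd2*, 5-FU), 3.39 to 4.04 (*Ccnd3*, 5-FU), 9.87 to 12.1 (*Ccne1*, 5-FU), 5.34 to 7.48 (*Ccne1*, genotype), -0.458 to 0.697 (*Ccnd2*, genotype), -0.497 to 0.626 (*Cdk4*, genotype), -0.729 to 0.54 (*Cdk4*, 5-FU) and -0.18 to 0.745 points (*Ccnb1*, 5-FU). The *Ccne1* 5-FU share lost its call without wild-type replicate 1 or 3 of either treatment (adjusted p 0.06 to 0.08), those of *Ccnd2* and *Ccnd3* missed it without wild-type replicate 1 or 3 after 5-FU (0.06), with no overlap of treatments, and the *Ccne1* genotype share gained one without untreated wild-type replicate 2 (0.03), all by exact permutation. The *Ccnd2* genotype share was -1.05 points from counts and -0.452 per kilobase of merged exons.

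Sign changes were otherwise limited to values that no fit called. With library totals *Ccne2* was 0.01 and *Cdk6* 0.02 for 5-FU in wild type. With 1 library left out, log2 fold changes ran, by genotype in untreated LSKs, from -0.20 to 0.10 (*Ccnd3*), -0.01 to 0.23 (*Ccne2*), -0.03 to 0.36 (*Ccnb1*), -0.06 to 0.06 (*Cdk4*) and -0.0 to 0.05 (*Cdk6*), from -0.13 to 0.10 for *Ccne2* by genotype after 5-FU, from -0.17 to 0.06 (*Ccne2*) and -0.01 to 0.38 (*Ccnb1*) with 5-FU in wild type, and from -0.23 to 0.07 for *Ccnd3* in the interaction. The median of all genes moved by under 0.1 with each other scaling of the same genes. The cause of the other changes was not tested.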

Other observations

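Of 14 other cyclins, 12 were tested by genotype after 5-FU, and 1 was higher and 2 lower in Tespa1-/-, with a median log2 fold change of -0.12, beside 7.34% of all genes tested higher and 5.78% lower. The higher gene, *Ccno*, passed the filter on low counts only through its Tespa1-/- libraries, so it is given as values alone, at 0.195, 0 and 0.124 CPM in wild type and 0.767, 2.21 and 1.71 CPM in Tespa1-/-. *Ccnl1*, a cyclin of RNA splicing, was abundant and was the only other cyclin called in untreated LSKs, at 387, 418 and 403 CPM in wild type and 264, 269 and 256 CPM in Tespa1-/- (-0.61, SE 0.05, edgeR adjusted p = 2.6e-04). It fell with 5-FU in wild type (-0.47, SE 0.05, edgeR adjusted p = 6.1e-04), and the 4 groups did not overlap, with 284, 293 and 295 CPM in wild type and 209.6, 192 and 214 CPM in Tespa1-/- after 5-FU.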
